A study of Mus musculus with 12 samples.

Results

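The perineuronal net and neural matrix genes of the mouse hippocampus were examined as a set of 10 genes listed by name: the lecticans Acan, Bcan, Ncan and Vcan, the link proteins Hapln1, Hapln2 and Hapln4, the tenascins Tnr and Tnc, and the receptor phosphatase Ptprz1. They were found by gene symbol, and all 10 were present among 46078 gene IDs. The tissue came from C57BL/6 mice at postnatal day 25, and 12 RNA libraries were sequenced, 3 in each of 4 groups. The groups were males and females heterozygous for the CHD8 Asn2373LysfsX2 mutation, called mutants here, and wild-type males and females. CHD8 is a chromatin remodelling enzyme, and the name of the mutation denotes a frameshift. Nothing in the labels states that libraries of 1 group are from different mice. P-values therefore measure only how far these libraries spread, and part of that spread may be technical.

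Perineuronal nets are lattices of extracellular matrix that enclose the cell body and proximal dendrites of certain neurons, in the hippocampus above all parvalbumin interneurons and CA2 pyramidal neurons. Their backbone is hyaluronan, a sugar chain made at the cell surface. Lecticans are chondroitin sulfate proteoglycans that bind hyaluronan at one end, link proteins of the Hapln family fasten that bond, and tenascins join lecticans to each other at the opposite end. The same families also form the looser matrix between synapses and glia and the matrix at nodes of Ranvier, the gaps between segments of myelin. Nets mature in the weeks after birth, when the neonatal matrix of neurocan, versican and tenascin-C gives way to one rich in brevican, aggrecan and tenascin-R.

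Values are normalized read counts, that is, reads per gene divided by 1 size factor per library. Each mutant library held 23721482 to 24654408 reads and each wild-type library 26912998 to 33327314, so depth and genotype cannot be told apart. Chd8 itself fell by 14.4% in mutants averaged over both sexes (log2 fold change -0.22 ± 0.03, SE; limma adjusted p = 0.0289), with 2383 to 2513 normalized counts in mutant libraries against 2751 to 2994 in wild-type libraries. Its direction matches the labels in all 12 libraries, but the call was kept only when the library left out was wild-type male 1 or mutant male 3 (limma adjusted p of 0.0251 to 0.162 over the 12 omissions). The 4 marker genes of hippocampal regions, Prox1, Wfs1, Grik4 and Bok, were present in every library. Choroid plexus is secretory tissue of the ventricle that borders the hippocampus, and its markers separated 3 libraries from the rest: mutant males 2 and 3 and wild-type female 1 had 167 to 274 normalized counts of Ttr, which encodes transthyretin, and the other 9 had 43047 to 156059. Averaged genotype effects of the members and of the pathway genes named are therefore also given without these 3 libraries, which leaves mutant male 1 as the only mutant male and 2 wild-type females.

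Brevican was the most abundant of the 10 transcripts for its length, and aggrecan the least. Per kilobase of annotated exon, Bcan averaged 2088 normalized counts over the 12 libraries (range 1923 to 2301), Ncan 959 (872 to 1069) and Tnr 800 (709 to 844). Hapln4 at 579 (525 to 658) and Ptprz1 at 576 (544 to 645) overlapped and exchanged places between libraries. Hapln1 at 225 (211 to 256) and Hapln2 at 188 (140 to 237) likewise exchanged places. Vcan followed at 81.8 (77.7 to 87.3), Tnc at 61.6 (48.2 to 75.8) and Acan at 26.6 (22.6 to 31.7) normalized counts per kilobase. The other 6 genes held the same rank in all 12 libraries. Tissue RNA averages over all cells, so a gene used by a few net-bearing neurons is diluted, and fewer cells of a type cannot be told apart from less RNA per cell.

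**Figure D1:**
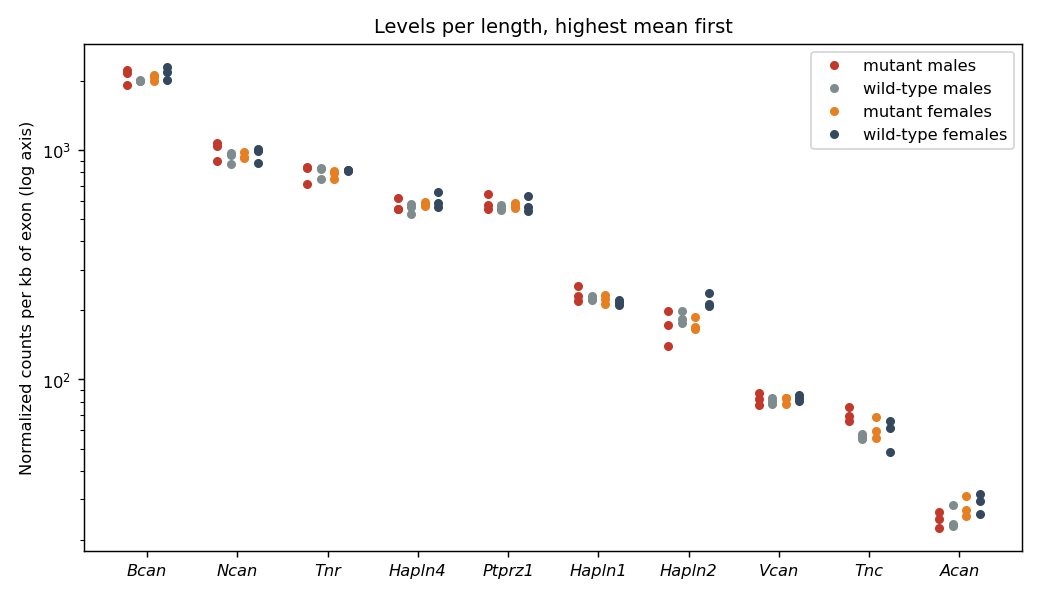
Level of each of the 10 matrix genes per length (normalized counts per kilobase of exon, log axis), 1 point per library, grouped by sex and genotype, with genes ordered by their mean. Bcan sits near 2088 and Acan near 26.6, and the 4 groups lie on top of each other for most genes.

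Within each family 1 member dominated. Of the length-scaled lectican signal, Bcan made up 66.2% ± 0.96 (SD over 12 libraries), Ncan 30.4% ± 0.98, Vcan 2.60% ± 0.12 and Acan 0.845% ± 0.10. Among the 3 link proteins Hapln4 held 58.3% ± 2.37, Hapln1 22.8% ± 1.52 and Hapln2 18.9% ± 2.17. Between the tenascins Tnr held 92.8% ± 0.93 and Tnc 7.16% ± 0.93. Brevican and tenascin-R, of the mature net, thus outweighed versican and tenascin-C, named above for the neonatal matrix, at this age. Vcan was counted per gene, so its transcript forms were not separated. Aggrecan, also of the mature net, went the other way, at 0.845% against 2.60% for versican. Neurocan, also a neonatal component, was the second lectican.

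The lecticans and their link proteins lie side by side in the genome. On build GRCm38, Bcan (chr3:87987531-88000230, minus strand) and Hapln2 (chr3:88021750-88027583, minus strand) are 21.5 kb apart. Ncan (chr8:70093085-70120873, minus) and Hapln4 (chr8:70083457-70090862, plus) are 2.22 kb apart, and Hapln1 (chr13:89539796-89611652, plus) and Vcan (chr13:89655312-89742509, minus) 43.7 kb. In the GENCODE M21 annotation 0 genes lie between the members of any of these pairs. Acan (chr7:79053483-79115099, plus) has its pair in Hapln3, whose end is 2 bases away. Tnr (chr1:159523769-159931729, plus), Tnc (chr4:63959785-64047015, minus) and Ptprz1 (chr6:22875502-23052916, plus) lie on chromosomes that hold no other member. The antisense gene Gm4117 at the Vcan locus was counted separately and averaged 356 normalized counts, against 1183 for Vcan. The library kit does not keep strand, so reads from any sequence shared by both genes could not be assigned by strand. The other genes that overlap a member averaged at most 11.6 normalized counts.

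Promoters are shown for Hapln2 and Bcan, neighbours on the same strand whose levels differed in their pattern over the libraries. That of Tnc is also shown, as its log2 range over the libraries was the widest after that of Hapln2. The RefSeq table of 300-base promoters (GRCm38.p6, 250 bases before to 50 after the annotated start) held 9 of the 10 members in 10 windows, with Tnc in 2 of them. Capitals mark 4 motifs on either strand, so that some of the marked letters are the reverse complement. They are the TATA box (TATAAA), the CCAAT box (CCAAT), the GC box (GGGCGG) and a core of the sequences bound by Sox transcription factors (ACAAT). The windows, printed 5′ to 3′ on the strand of the gene, are Hapln2 chr3:88027462-88027761, Bcan chr3:88000307-88000606 and the downstream window of Tnc at chr4:64046887-64047186, all on the minus strand.
Hapln2: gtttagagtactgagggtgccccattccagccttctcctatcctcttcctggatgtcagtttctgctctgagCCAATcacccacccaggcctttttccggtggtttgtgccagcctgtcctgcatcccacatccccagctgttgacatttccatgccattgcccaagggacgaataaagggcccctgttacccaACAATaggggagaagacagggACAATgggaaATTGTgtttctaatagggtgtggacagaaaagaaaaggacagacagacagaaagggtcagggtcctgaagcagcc
Bcan: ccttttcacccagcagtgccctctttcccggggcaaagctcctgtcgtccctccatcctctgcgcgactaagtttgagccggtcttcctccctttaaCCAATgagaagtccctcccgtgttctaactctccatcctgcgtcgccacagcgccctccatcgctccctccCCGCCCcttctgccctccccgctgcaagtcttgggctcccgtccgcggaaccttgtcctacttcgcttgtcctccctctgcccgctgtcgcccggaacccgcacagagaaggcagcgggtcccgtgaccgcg
Tnc: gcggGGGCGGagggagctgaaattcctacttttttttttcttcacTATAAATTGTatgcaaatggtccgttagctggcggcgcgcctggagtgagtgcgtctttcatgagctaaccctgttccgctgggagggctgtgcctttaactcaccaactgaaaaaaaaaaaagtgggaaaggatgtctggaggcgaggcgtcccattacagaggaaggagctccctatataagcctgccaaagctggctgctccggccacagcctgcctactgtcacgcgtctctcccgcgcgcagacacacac
The Hapln2 window held 3 copies of ACAAT, at positions -56, -35 and -25 from the start, and a CCAAT at -178, with neither a TATAAA nor a GC box. Of 27025 promoters in the table, 31.6% held at least 1 ACAAT and 1.92% held 3 or more. The Bcan window held a CCAAT at -153 and a GC box at -82 and no ACAAT, and CCAAT occurred in 37.9% and the GC box in 35.9% of all promoters. The Tnc window held a GC box at -246, a TATAAA at -205 and an ACAAT at -200. The TATAAA and the ACAAT share a base, and TATAAA occurred in 14.2% of all promoters. Only exact letters were counted, so the TATATAAG nearer the start in the Tnc window was not marked. Among the 9 members ACAAT occurred in 3, the GC box in 6, CCAAT in 4 and TATAAA in 2. These motifs were chosen with the expression values known, and a match is a description of the letters, not of a bound factor.

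The question put to each member was whether its level differed between mutants and wild type, in each sex and in both. None of the 10 did at the threshold used, a limma p adjusted over all 17496 tested genes of under 0.05. Averaged over both sexes 0 of 10 members passed, against 0.00572% of all tested genes (1 gene, Chd8), and 2 of 10, Hapln2 and Tnc, had an unadjusted p under 0.05, against 8.87% of all tested genes. In males 0 of 10 passed, against 0% of all genes, and 1, Tnc, had an unadjusted p under 0.05, against 10.3%. In females 0 of 10 passed, against 0%, and 1, Hapln2, had an unadjusted p under 0.05, against 6.9%. With edgeR, with DESeq2 and without the 3 libraries low in choroid plexus markers the counts of members past the adjusted threshold were also 0 in each of these comparisons. Without those libraries the unadjusted p was under 0.05 for 3 of 10 averaged over sexes, where Tnr joined Hapln2 and Tnc (8.58% of all genes), for 2 of 10 in males, Hapln2 and Tnr (7.76%), and for 1 of 10 in females, Hapln2 (8.5%). The members' medians of log2 fold change, -0.0002 averaged over sexes, 0.052 in males and -0.040 in females, stood beside all-gene medians of -0.0001, 0.0017 and 0.0011.

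**Figure D2:**
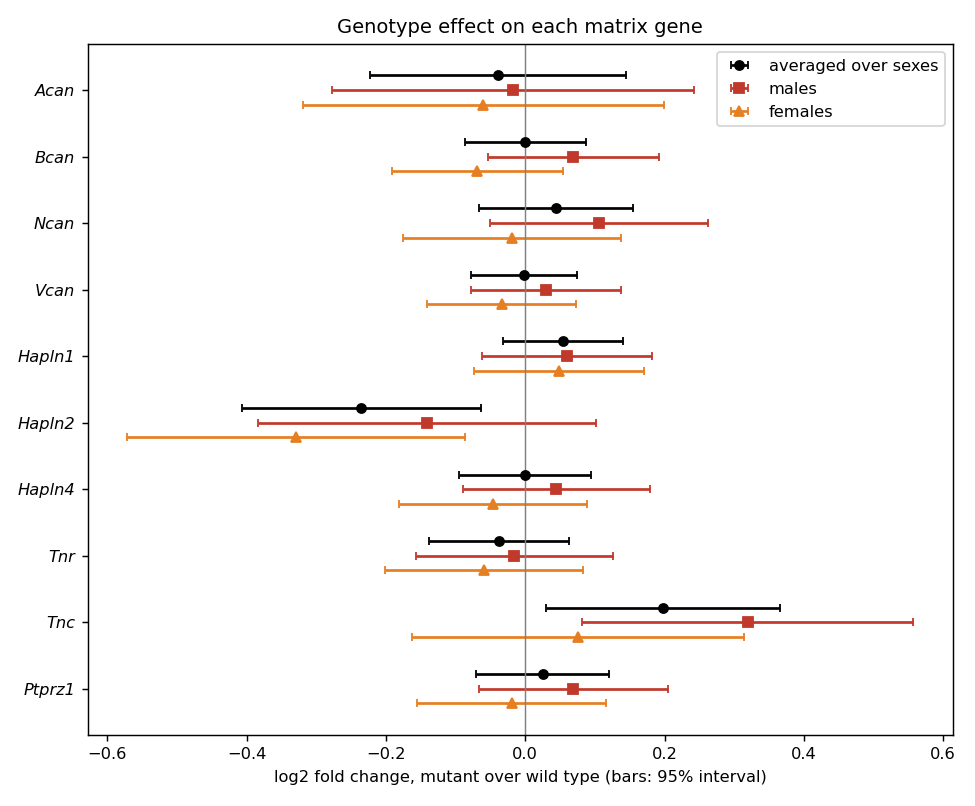
Log2 fold change of each matrix gene, mutant over wild type, averaged over sexes (black circles), in males (red squares) and in females (orange triangles), with 95% intervals from limma. The averaged interval excludes 0 for Hapln2 and Tnc, while 0 genes of the 10 pass the threshold after adjustment over all 17496 genes.

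Among the lecticans, the averaged difference was 3.07% or less in size. Bcan, the brevican gene, whose product coats synapses and perisynaptic glia, had 7813, 9031 and 8835 normalized counts in mutant males against 8094, 8232 and 8102 in wild-type males. In females it had 8464, 8622 and 8135 in mutants against 9351, 8901 and 8227 in wild type. The groups overlapped in both sexes, and the averaged log2 fold change was 0.0003 ± 0.040 (SE, as for all fold changes), with a 95% interval of -5.81 to 6.22%. Ncan, which encodes neurocan, a lectican of the juvenile brain, ranged from 6422 to 7692 normalized counts in mutants and from 6272 to 7288 in wild type (log2 0.044 ± 0.051; interval -4.53 to 11.3%). Vcan, the versican gene, was the steadiest of the 10 and ranged from 1124 to 1263 normalized counts in mutants and from 1130 to 1231 in wild type (log2 -0.0021 ± 0.035; interval -5.27 to 5.25%). Neither gene separated the genotypes in either sex. Acan, which encodes aggrecan, the core lectican of nets, had 185, 197 and 168 normalized counts in mutant males against 171, 212 and 176 in wild-type males. In females Acan had 190, 202 and 233 normalized counts in mutants against 193, 237 and 221 in wild type. Its groups overlapped too, and the interval was wider (log2 -0.039 ± 0.084; -14.3 to 10.5%), at 155 to 266 reads per library. The averaged log2 fold changes without the 3 choroid-poor libraries were -0.043 for Bcan, -0.017 for Ncan, -0.052 for Vcan and -0.073 for Acan.

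Of the link proteins Hapln2 stood apart by its range. Hapln2 encodes Bral1, which holds versican and brevican in the matrix of central nodes of Ranvier. It had 332, 408 and 473 normalized counts in mutant males against 437, 417 and 471 in wild-type males. In females it had 394, 403 and 445 in mutants against 504, 563 and 494 in wild type. Every mutant female thus lay below every wild-type female, as 10.8% of all tested genes did in one direction or the other, while the male groups overlapped and mutant male 1 was the lowest of the 12 libraries. Means were 404 ± 70.6 (SD, n = 3) in mutant males against 442 ± 27.3 in wild-type males, and 414 ± 27.1 in mutant females against 520 ± 37.3 in wild-type females.

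The averaged log2 fold change of Hapln2 was -0.24 ± 0.08 (-15.0%, 95% interval -24.6 to -4.33%; limma adjusted p = 0.414). It was -0.33 ± 0.11 in females (limma adjusted p = 0.590) and -0.14 ± 0.11 in males (limma adjusted p = 0.709). The male value was -0.0063 without mutant male 1 and -0.26 without mutant male 3. With the 3 choroid-poor libraries left out the averaged value was -0.38 ± 0.07 (limma adjusted p = 0.0587), the nearest any member came to the threshold over 23 alternatives. The single mutant male in that fit is mutant male 1, so its male part rests on the library with the least Hapln2. By sex, Hapln2 stood in that fit at -0.41 in males and -0.35 in females.

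Hapln1 and Hapln4 showed smaller values. Hapln1, whose link protein is needed for full nets around cortical neurons, ranged from 1262 to 1514 normalized counts in mutants and from 1244 to 1364 in wild type (log2 0.054 ± 0.040; interval -2.21 to 10.2%). Hapln4, known as Bral2 and tied to brevican in nets of the brainstem and cerebellum, ranged from 2167 to 2415 normalized counts in mutants and from 2059 to 2580 in wild type (log2 -0.0008 ± 0.044; interval -6.42 to 6.75%). Both overlapped between genotypes in each sex, and without the 3 choroid-poor libraries their averaged values were -0.0062 and 0.041. Hapln2's share of the length-scaled link protein signal was 17.4% ± 2.76 in mutant males against 19.2% ± 0.67 in wild-type males, and 17.8% ± 0.76 in mutant females against 21.2% ± 1.99 in wild-type females (SD, n = 3 each).

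Of the tenascins Tnc had the larger genotype difference. It encodes tenascin-C, a glycoprotein of astrocytes and radial glia that is abundant in the developing brain and persists around neurogenic niches. Tnc had 539, 514 and 589 normalized counts in mutant males against 449.9, 429.7 and 434 in wild-type males. In females it had 463, 533 and 432 in mutants against 510.2, 374 and 476 in wild type. Every mutant male lay above every wild-type male, as 16% of all tested genes did in one direction or the other, and the female groups overlapped. Means were 547 ± 38.1 (SD, n = 3) in mutant males against 438 ± 10.6 in wild-type males, and 476 ± 51.7 in mutant females against 454 ± 70.8 in wild-type females.

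The log2 fold change of Tnc was 0.32 ± 0.11 in males (24.8%, 95% interval 5.81 to 47.2%; limma adjusted p = 0.423) and 0.076 ± 0.11 in females (limma adjusted p = 0.941). The female value ran from -0.056 to 0.17 when 1 library was left out, with the lower end without wild-type female 2 and the upper without wild-type female 1. Averaged over both sexes it was 0.20 ± 0.08 (14.7%, interval 2.06 to 28.9%; limma adjusted p = 0.481), and 0.13 without wild-type female 2. With the 3 choroid-poor libraries left out Tnc stood at 0.23 ± 0.09 averaged over sexes (limma adjusted p = 0.488) and at 0.30 ± 0.14 in males (limma adjusted p = 0.667), where a single mutant library remained. Tnr, the tenascin-R gene, which oligodendrocytes and some interneurons express, ranged from 9129 to 10864 normalized counts in mutants and from 9589 to 10769 in wild type (log2 -0.037 ± 0.046; interval -9.09 to 4.47%). Without the 3 choroid-poor libraries Tnr stood at -0.12 ± 0.04 averaged over sexes (limma adjusted p = 0.446) and at -0.18 ± 0.07 in males (limma adjusted p = 0.560). The averaged value is over 3 times that from all 12 libraries, and mutant male 1, the only mutant male in that fit, was the lowest of the 12 for Tnr. Ptprz1 encodes a receptor tyrosine phosphatase of glia, and a secreted splice form of it, phosphacan, is itself a chondroitin sulfate proteoglycan that binds tenascin-R. It ranged from 7852 to 9190 normalized counts in mutants and from 7747 to 9013 in wild type (log2 0.025 ± 0.044; interval -4.79 to 8.70%), with 0.0089 without the 3 choroid-poor libraries. The deposited values are per gene, so the phosphatase and phosphacan forms could not be separated.

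**Figure D3:**
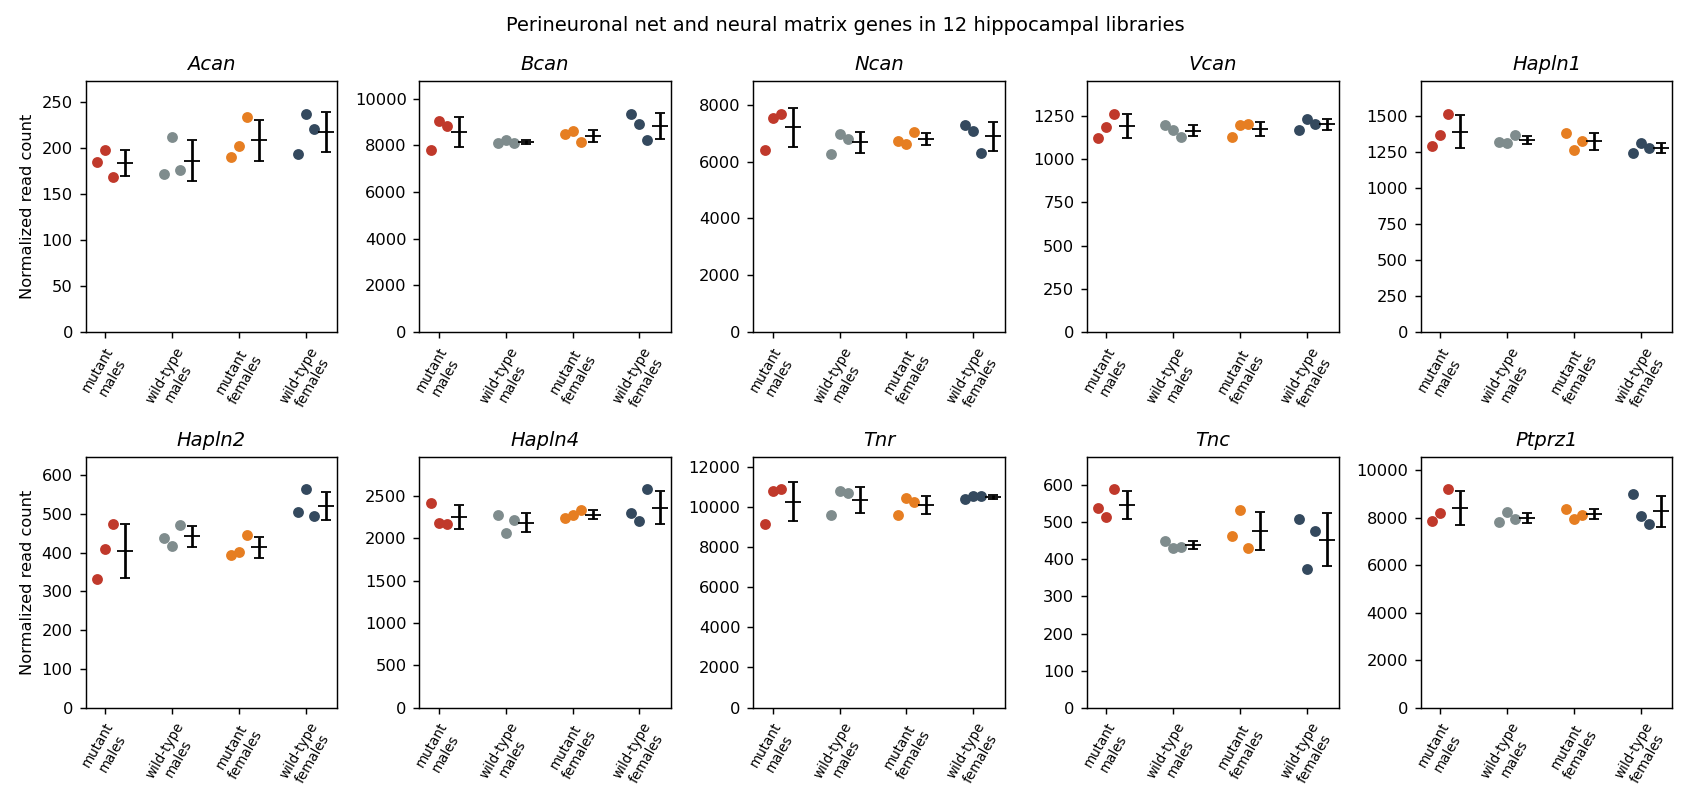
Normalized read counts of the 10 matrix genes in mutant males, wild-type males, mutant females and wild-type females (1 point per library; bars are the mean and SD of 3 libraries; every vertical axis starts at 0). The mutant males of Tnc (514 to 589) lie above the wild-type males, and the mutant females of Hapln2 (394 to 445) lie below the wild-type females.

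Over the whole set, no member had all 6 mutant libraries on one side of all 6 wild-type libraries (0 of 10, against 0.543% of all tested genes). Between mutant and wild-type males 1 of 10 members did not overlap, Tnc, against 16% of all tested genes, and between mutant and wild-type females 1 of 10, Hapln2, against 10.8%, so neither count exceeds the share over all genes. Variation within a group was alike for members and other genes of similar abundance: the median within-group SD on the log2 scale was 0.088 for the 10 members, 0.11 for all tested genes and 0.082 for the 12767 with a mean of at least 100. Hapln2, Tnc and Acan had the widest within-group SDs, 0.15 each on that scale, and were 3 of the 4 genes with the fewest reads per length. Mutant male 1 was the lowest of its group for 7 of the 10 members (Bcan, Ncan, Vcan, Hapln1, Hapln2, Tnr and Ptprz1), and mutant male 3 the highest for 7 (Ncan, Vcan, Hapln1, Hapln2, Tnr, Tnc and Ptprz1). These libraries also differed in choroid plexus content, with 143001 normalized counts of Ttr in mutant male 1 and 274 in mutant male 3.

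The genotype effect was next compared between the sexes. The male effect minus the female effect was positive for 10 of 10 members, from 0.011 (Hapln1) to 0.24 (Tnc) on the log2 scale, beside 51.6% of all tested genes. For 0 of 10 did the difference pass limma's adjusted threshold, against 0% of all genes, and for 0 of 10 was the unadjusted p under 0.05, against 7.85%. Tnc stood at 0.24 ± 0.15 (limma adjusted p = 0.755), Hapln2 at 0.19 ± 0.16 (limma adjusted p = 0.824) and Bcan at 0.14 ± 0.08 (limma adjusted p = 0.724). The Tnc value was 0.15 without wild-type female 1 and 0.38 without wild-type female 2, and that of Hapln2 was 0.068 without mutant male 3 and 0.32 without mutant male 1. With the 3 choroid-poor libraries left out, Hapln2 stood at -0.061 and Bcan at -0.034, so both changed sign, and Tnc at 0.13. The members share the same libraries, so 10 like signs are not 10 separate observations. Without the 3 libraries low in choroid plexus markers the signs were 4 positive and 6 negative, and with that score added to the fit as a covariate they were 5 and 5. In males alone 7 members had a positive and 3 a negative log2 fold change, against 2 and 8 without those libraries.

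Sex itself was compared over both genotypes. Of the members 0 of 10 passed limma's adjusted threshold between males and females, against 0.0686% of all tested genes (12 genes). The unadjusted p was under 0.05 for 1 of 10, Acan, against 6.64% of all genes. Acan averaged 185 normalized counts in males against 213 in females (log2 fold change -0.20 ± 0.08, male over female; -13.0%, 95% interval -23.4 to -1.16%; limma adjusted p = 0.708). Males ranged from 168 to 212 and females from 190 to 237 normalized counts, so the sexes overlapped. Without the 3 choroid-poor libraries Acan stood at -0.23 ± 0.10 (limma adjusted p = 0.580), and the unadjusted p was under 0.05 for 3 of 10 members, Acan, Bcan and Hapln2, against 8.51% of all genes. No member had all males on one side of all females (0 of 10, against 0.469% of all genes). Markers of the 2 cell types best known for nets gave median log2 differences, male over female, of 0.0088 for 8 parvalbumin interneuron genes and 0.077 for 7 CA2 genes, and between mutants and wild type of 0.027 and -0.040.

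The genes whose levels followed each member most closely over the 12 libraries were found by the root mean square difference between centred log2 levels, among genes with a mean of at least 100. For Hapln2 these were Sox10, a transcription factor of the oligodendrocyte lineage (0.066), Pde8a, a cyclic AMP phosphodiesterase (0.070), and Gjc3, a connexin of myelinating glia (0.075). Hapln2's own root mean square deviation was 0.19, against distances of 0.066 to 0.075 to these genes. For Tnc the closest were Fgf14, Cav2 and Plxna3 at 0.093 to 0.099, against its own 0.17. Ncan was closest to the neuronal genes Ina, an intermediate filament protein, and Grin2b, a glutamate receptor subunit (0.036 each), and to Crim1 (0.038), against its own 0.092. Ptprz1 was closest to Slc1a3, the astrocyte glutamate transporter (0.035), and then to Mpp2 and Sae1, against its own 0.075. For the other 6 members the 3 closest genes differed by 0.033 to 0.10, and for Acan, the least abundant, they were the least close of those 6 (Msrb1, 0.083).

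**Figure D4:**
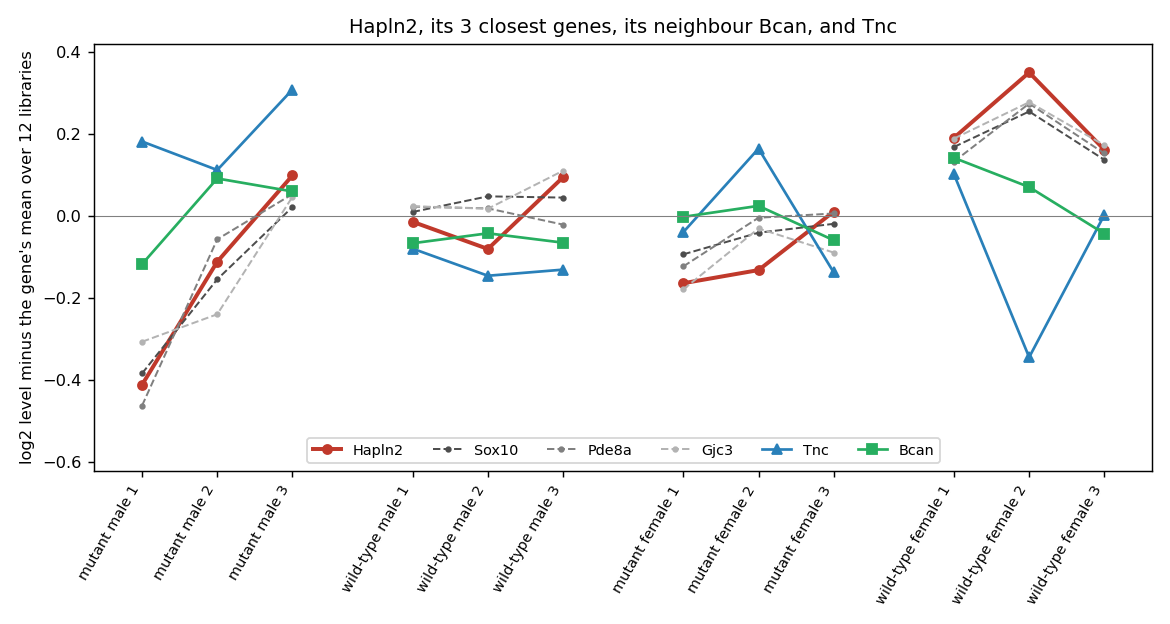
Log2 level of Hapln2, its 3 closest genes (Sox10, Pde8a and Gjc3), its chromosomal neighbour Bcan, and Tnc in each of the 12 libraries, each minus the gene's own mean. Hapln2 and its 3 closest genes reach their lowest point in mutant male 1 (Hapln2 at -0.41) and their highest in wild-type female 2 (Hapln2 at 0.35), while Bcan stays within -0.12 and 0.14.

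Genes of oligodendrocytes are given beside Hapln2, since Sox10 and Gjc3 were among its closest genes. All 10 markers of mature oligodendrocytes had a negative averaged log2 fold change (median -0.24), as did all 15 structural genes of myelin (median -0.24, range -0.31 to -0.17). None of either list passed limma's adjusted threshold with all 12 libraries (0 of 10 and 0 of 15). Without the 3 choroid-poor libraries all 10 mature markers (median -0.38) and all 15 myelin genes (median -0.36) were again lower in mutants. Mutant male 1 was the only mutant male in that fit, so calls from it are not listed here. With DESeq2 on all 12 libraries 5 of 10 and 7 of 15 passed the adjusted threshold as lower, beside 75 of all tested genes in either direction. With edgeR 0 of 10 and 0 of 15 passed. The mean log2 level of the 10 mature markers was 13.7 ± 0.19 (SD, n = 3) in mutant males against 14.0 ± 0.08 in wild-type males, and 13.9 ± 0.11 in mutant females against 14.2 ± 0.11 in wild-type females. Mutant male 1, lowest for Hapln2, was also the lowest of the 12 libraries for this score, at 13.54. Of 10 markers of oligodendrocyte precursors, cells that express versican and Ptprz1, 7 were negative and 3 positive (median -0.062), while Vcan and Ptprz1 stood at -0.0021 and 0.025. The sums of normalized counts over the mature markers ranged from 315355 to 437498 in mutant libraries and from 400176 to 511844 in wild-type libraries, and 0 of the markers were at 0 in any library. The part of oligodendrocyte content in the Hapln2 values was not tested.

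The enzymes, proteases and partners around these proteins were then described from lists of the pathway. None of these lists held a gene past limma's adjusted threshold in any genotype comparison with all 12 libraries (0 in each). With DESeq2 on all 12 libraries Nfasc passed the adjusted threshold averaged over sexes and in males, and with edgeR 0 genes of these lists did. The counts that follow are of signs in the average over both sexes, beside 8736 higher and 8760 lower among all tested genes. Of 13 genes of hyaluronan synthesis, binding and turnover, 6 were positive and 7 negative (median log2 -0.035). The smallest p-values belonged to Cemip2, a hyaluronidase of the cell surface (-0.15 ± 0.05, limma adjusted p = 0.378), and Tnfaip6, which transfers protein chains onto hyaluronan (-0.27 ± 0.09, limma adjusted p = 0.424). Of 21 tested genes of chondroitin sulfate synthesis 13 were positive and 8 negative (median 0.014), and Chst13 was below the filter. Chst3, which sulfates chondroitin, stood at -0.28 ± 0.08 (limma adjusted p = 0.340), and Chpf, a chondroitin polymerizing factor, at 0.11 ± 0.04 (limma adjusted p = 0.431). The values without the 3 choroid-poor libraries were -0.17 for Cemip2, -0.41 for Tnfaip6, -0.39 for Chst3 and 0.11 for Chpf. Mutant male 1, the only mutant male in that fit, was the lowest of the 12 libraries for Tnfaip6 and Chst3.

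Chst3 had 211, 239 and 283 normalized counts in mutant males against 283, 270.3 and 286 in wild-type males, and 219, 258 and 214 in mutant females against 286, 301 and 299 in wild-type females. The female groups did not overlap, as in 10.8% of all tested genes, and the male groups did. Of 19 tested matrix proteases and inhibitors 11 were positive and 8 negative (median 0.030), and Mmp3 was below the filter. Adamts4, a protease that cuts brevican and aggrecan and that mature oligodendrocytes express, had 1270.0, 1649 and 1942 normalized counts in mutant males against 1963, 2045 and 2126 in wild-type males. In females it had 1624, 1876 and 1725 in mutants against 1965, 2149.6 and 2035 in wild type. All 6 mutant libraries thus lay below all 6 wild-type libraries, which 0.543% of tested genes did in one direction or the other, and the averaged value was -0.30 ± 0.08 (limma adjusted p = 0.355). Without the 3 choroid-poor libraries Adamts4 stood at -0.48 ± 0.05. Mutant male 1, the only mutant male in that fit, was the lowest of all libraries for Adamts4. The averaged value was -0.21 without mutant male 1 alone. Adamts15, another protease of lecticans, stood at 0.26 ± 0.13 (limma adjusted p = 0.570), with 0.31 without those 3 libraries and 0.15 without mutant female 2.

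Of 15 receptors and ligands of lecticans, tenascin-R and Ptprz1, 11 were positive and 4 negative (median 0.071). Nfasc encodes neurofascin, an adhesion protein of nodes, paranodes and axon initial segments that gathers brevican there. It ranged from 14074 to 17468 normalized counts in mutants and from 17972 to 19651 in wild type, with no overlap, as in 0.543% of all tested genes (-0.21 ± 0.04, limma adjusted p = 0.285). Nfasc passed the threshold without mutant male 3 alone (-0.25 ± 0.04, limma adjusted p = 0.0394). It also passed with DESeq2 on all 12 libraries (-0.21 ± 0.05, DESeq2 adjusted p = 0.00432), but not with edgeR. Without the 3 choroid-poor libraries Nfasc stood at -0.30 ± 0.03. Mutant male 1, the only mutant male in that fit, was the lowest of the 12 libraries for Nfasc. The averaged value was -0.17 without mutant male 1 alone. Egfr, a growth factor receptor, stood at 0.14 ± 0.07 (limma adjusted p = 0.566), with 0.30 in females and -0.024 in males, and 0.14 without the 3 choroid-poor libraries. Of 18 other brain proteoglycans and matrix glycoproteins 16 were positive and 2 negative (median 0.048). Bgn, which encodes the small proteoglycan biglycan, stood at 0.43 ± 0.18 (limma adjusted p = 0.512). It averaged 671 ± 144 normalized counts in mutant males against 612 ± 81.8 in wild-type males, and 1027 ± 406 in mutant females against 598 ± 145 in wild-type females (SD, n = 3 each). Its value was 0.28 without mutant female 2, the highest library at 1483 normalized counts, and 0.18 without the 3 choroid-poor libraries. Reln, the signalling glycoprotein of Cajal-Retzius cells and interneurons, stood at 0.19 ± 0.08 (limma adjusted p = 0.526), with 0.11 without the choroid-poor libraries. For comparison, 14 of 17 collagens, which brain tissue holds mainly in vessels and meninges, were positive (median 0.14), and the 7 markers of meningeal fibroblasts were all positive (median 0.70). By sex, 5 of these 7 were positive in males (median 0.15) and 7 of 7 in females (median 1.29). Without the 3 choroid-poor libraries 1 of 7 was positive in males (median -0.40), where mutant male 1 was the only mutant. In females 7 of 7 were again positive (median 1.29). The part of vessel and meningeal tissue in the Bgn value was not tested.

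**Figure D5:**
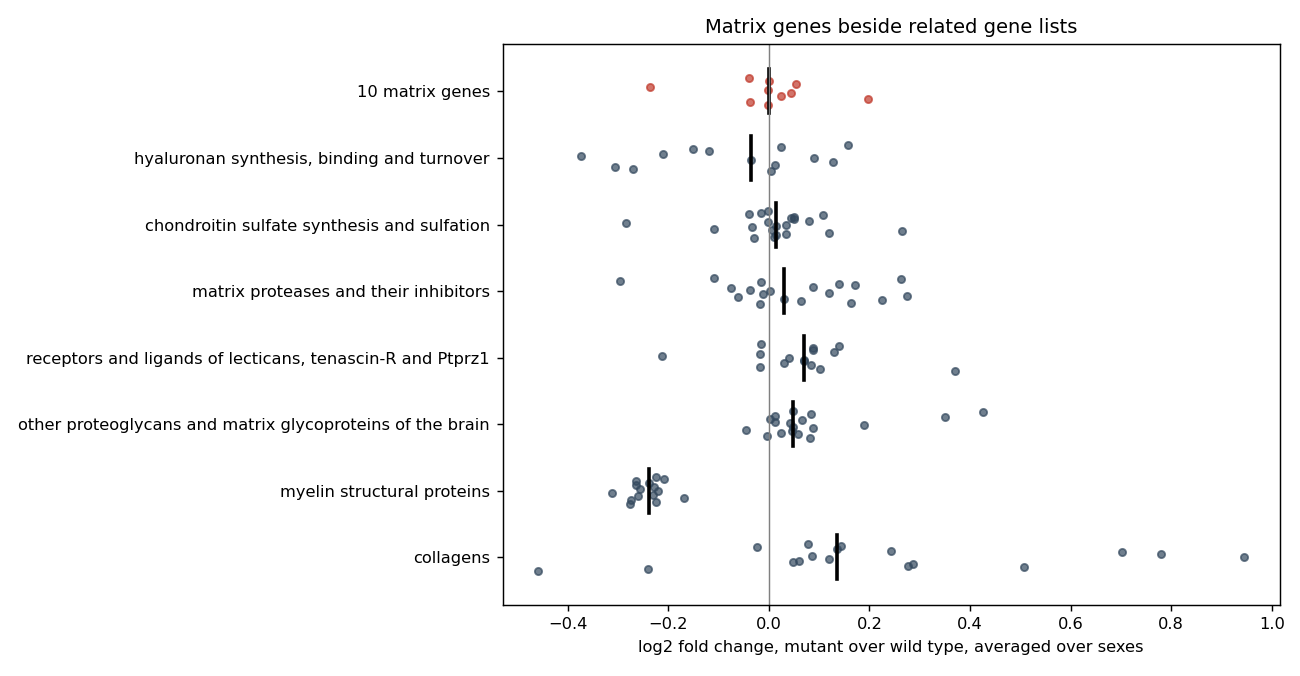
Log2 fold change of single genes, mutant over wild type averaged over sexes, for the 10 matrix genes and for related lists (1 point per tested gene; vertical bars are list medians). The 10 matrix genes centre on 0 with Hapln2 and Tnc at the ends, the 15 myelin genes lie between -0.31 and -0.17, and the collagens have a median of 0.14.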

How the data were processed

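The libraries of mouse hippocampus RNA came from Illumina's TruSeq RNA Sample Prep Kit v2 according to the labels, and that kit loses strand. Trimmomatic 0.35, TopHat2 2.1.0, HTSeq and DESeq2 appear in the submitters' processing notes beside build GRCm38, with no roles stated. Which annotation release was used for counting was not given. The deposited signal of a gene is its read count over the size factor of the library. The values themselves show this: within a library each was a whole multiple of 1 step (0.807 to 1.13 normalized counts per read), and 100% came out whole within 1e-04 reads. The step of wild-type male 1 is close to 1, so its values resemble raw counts.

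The design named limma for such values. A minimum mean of 10 left 17496 of 46078 genes, values were taken as log2(value + 1), and limma 3.58.1 (R 4.3.3, trend option) was given 1 mean per group over 12 libraries, with Benjamini-Hochberg adjustment at 0.05. Fold changes understate those of low genes. On the recovered whole reads edgeR 4.0.16 called 1 gene in the averaged comparison, and DESeq2 1.42.0 called 75. Other alternatives were TMM and upper-quartile scaling, pseudocounts of 0.5 and 5, no filter or a mean of 50, a replicate block, the choroid plexus score as covariate, and leaving out the 3 libraries low in it or each library in turn. Choroid plexus, like other marker scores, is the mean log2 level of a marker list. Levels per kilobase use the union of GENCODE M21 exons. Within groups, pairs of libraries differed by a chi-square of 3.43 to 30.7 per gene, so none was a duplicate. The fits were tested on simulated data.

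Members and lists were chosen with earlier results of these data known. Genes named are the members, Chd8, the 2 of each pathway list with the smallest averaged p, the 3 genes closest to each member, and markers given beside a result.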

Additional observations from a re-analysis of the deposited data

How the results depend on the processing

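None of the 10 matrix genes passed the threshold in any comparison under any of the 23 alternatives. The number of all genes past it was 75 averaged over sexes, 35 in males, 11 in females, 3 for the sex difference and 48 for sex with DESeq2, and 82, 12, 1, 2 and 34 without the 3 libraries low in choroid plexus markers. Averaged over sexes it was 0 with upper-quartile scaling, without a filter and with the replicate block, so the Chd8 call was lost there. Leaving out single libraries gave 0 to 8 genes averaged over sexes, 0 to 1 in males, in females and for the sex difference, and 11 to 18 for sex. Same-numbered libraries did not deviate together throughout: correlations ran from -0.58 to 0.29 and were over 0.1 in 4 of 18 pairs. In 6 of 18 comparisons the own number was the highest. With 3 libraries per group, some of them low in choroid plexus markers, these values cannot exclude pairing by number. The replicate block gave 0 genes averaged over sexes, 0 matrix genes in any comparison and 16 genes for sex. Acan had the fewest reads of the 10 genes, 155 to 266 per library, and a 95% interval of -14.3 to 10.5% averaged over sexes. The cause of the changes of direction that follow was not tested. Upper-quartile scaling turned the log2 fold changes averaged over sexes of Bcan (-0.0012). In males it turned Acan (0.0027) and Tnr (0.0046). The choroid plexus score as a covariate turned the log2 fold changes averaged over sexes of Bcan (-0.032), Hapln4 (0.023) and Ptprz1 (-0.0035). In males it turned Acan (0.054), Bcan (-0.050), Ncan (-0.026) and Ptprz1 (-0.036). In females it turned Ncan (0.043) and Ptprz1 (0.029). For the sex difference it turned Bcan (-0.037), Ncan (-0.069), Hapln1 (-0.030), Tnr (-0.078) and Ptprz1 (-0.065). TMM scaling turned the log2 fold changes averaged over sexes of Bcan (-0.0049). Leaving out the 3 libraries low in choroid plexus markers turned the log2 fold changes averaged over sexes of Bcan (-0.043), Ncan (-0.017), Hapln1 (-0.0062) and Hapln4 (0.041). In males it turned Bcan (-0.060), Ncan (-0.058), Vcan (-0.052), Hapln1 (-0.042) and Ptprz1 (-0.026). In females it turned Ncan (0.023) and Ptprz1 (0.044). For the sex difference it turned Bcan (-0.034), Ncan (-0.081), Hapln1 (-0.071), Hapln2 (-0.061), Tnr (-0.11) and Ptprz1 (-0.070). Without single libraries, sign changes occurred averaged over sexes over ranges of -0.081 to 0.0087 for Acan, -0.025 to 0.033 for Bcan, -0.024 to 0.018 for Vcan, -0.026 to 0.032 for Hapln4, -0.064 to 0.0036 for Tnr and -0.0082 to 0.057 for Ptprz1. The ranges in males were -0.075 to 0.077 for Acan, -0.013 to 0.070 for Vcan, -0.0033 to 0.11 for Hapln1, -0.0061 to 0.075 for Hapln4 and -0.069 to 0.066 for Tnr. Those in females were -0.14 to 0.0054 for Acan, -0.082 to 0.023 for Ncan, -0.093 to 0.019 for Hapln4, -0.056 to 0.17 for Tnc and -0.065 to 0.044 for Ptprz1. For the sex difference they were -0.023 to 0.14 for Acan, -0.052 to 0.062 for Hapln1 and -0.011 to 0.12 for Tnr.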
